A study of Rattus norvegicus with 6 samples.

Results

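Fatty acid oxidation was followed in quiescent and active neural stem and progenitor cells (NSPCs) of the adult rat hippocampus through 39 genes of its mitochondrial and peroxisomal steps, of which 36 were measured among 17245 genes in all. The genes were chosen by symbol as the enzymes and carriers that activate, transport and oxidise fatty acids, and each was read from probe sets that carry its symbol alone. Acaa1a, Decr2 and Scp2, all peroxisomal, lie on probe sets shared with other genes and have no value. Of the measured genes 21 encode mitochondrial proteins, 5 peroxisomal proteins and 3 proteins found in both compartments (Eci2, Acad11 and Crat). The other 7 are 5 acyl-CoA synthetases, the cytosolic thioesterase Acot1 and Cpt1c, a relative of the carnitine palmitoyltransferases that resides in the endoplasmic reticulum of neurons.

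A fatty acid enters oxidation once an acyl-CoA synthetase has joined it to coenzyme A. Long chains then cross into the mitochondrion as carnitine esters, which CPT1 makes on the outer side, a translocase carries across and CPT2 turns back into acyl-CoA. Each round of beta-oxidation removes a short unit as acetyl-CoA through a dehydrogenase, a hydratase, a second dehydrogenase and a thiolase, and electrons of the first step pass through the electron transfer flavoprotein (ETF) to the respiratory chain. Peroxisomes shorten very long and branched chains with oxidases that yield hydrogen peroxide. Adult neural stem cells are known to oxidise fatty acids, and the pathway has been tied to their quiescence.

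The Q-NSPCs were neurospheres cultured with 10 ng/ml FGF2 and 50 ng/ml BMP4 over 4 days, and the A-NSPCs were neurospheres cultured over the same 4 days with 10 ng/ml FGF2 alone. FGF2 is a mitogen that both groups received, and BMP4 is a ligand that arrests the division of these cells. Each group had 3 biological replicates on 1 Affymetrix array each, and values are log2 intensities that the authors normalised with RMA. The cultures model quiescence in vitro and may hold cells in several states, so fewer cells of a type and less RNA per cell cannot be told apart in them. The labels do not say whether replicates came from separate animals, so p-values measure the spread between these 6 samples.

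Array medians lay between 7.53 and 7.57. Q-NSPC replicate 1 stood apart from its group, since its mean correlation over all genes was 0.988 with the other Q-NSPC arrays and 0.988 with the A-NSPC arrays, whereas Q-NSPC replicates 2 and 3 reached 0.991 and 0.992 with Q-NSPC arrays and 0.971 and 0.973 with A-NSPC arrays. All 10 cell division genes examined were lower in every Q-NSPC array than in every A-NSPC array, and 7 of them passed the test. Over all genes 15.3% were lower without overlap. By the test 7.91% of all genes rose and 6.2% fell, shares to set beside each marker count here. The median of the cell division genes stood 0.27 log2 units under the A-NSPC mean in Q-NSPC replicate 1, but 1.44 and 1.21 under it in replicates 2 and 3. Of 10 NSPC markers 2 rose and 0 fell. At an unadjusted p under 0.05 from limma, 2 of them were higher and 3 lower, where 16.2% and 13.3% of all genes were. This list averaged 9.97 to 10.38 in the Q-NSPC arrays and 10.18 to 10.36 in the A-NSPC arrays. Among markers of other cells, 9 of 14 neuroblast and neuron genes rose (led by Gad1 and Tubb3) and 1 fell, 3 of 10 astrocyte genes rose (Gfap among them) and 0 fell, 2 of 10 oligodendrocyte lineage genes fell and 0 rose, and none of 11 microglial and 7 endothelial or mural genes passed limma (1 microglial gene had an unadjusted p under 0.05). The neuronal list averaged 9.74 to 10.22 in the Q-NSPC arrays and 8.89 to 9.06 in the A-NSPC arrays, the astrocyte list 8.79 to 8.94 in the Q-NSPC arrays and 8.43 to 8.56 in the A-NSPC arrays, and the oligodendrocyte list 8.03 to 8.89 in the Q-NSPC arrays and 8.93 to 9.02 in the A-NSPC arrays. These lists moved with the groups, and their part in the values of the oxidation genes was not tested.

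In the quiescent cultures 8 of 21 mitochondrial genes of the pathway rose and 3 of 5 long-chain acyl-CoA synthetases (Acsl genes) fell. With limma (two-sided, Benjamini-Hochberg over 17245 genes, threshold 0.05), 11 of 36 measured genes rose in Q-NSPCs and 4 fell, where 7.91% of all genes rose and 6.2% fell. None of these 15 genes reached a 2-fold change, and Cpt1a came nearest at 0.997 log2 units. The median log2 fold change, Q-NSPC minus A-NSPC, was 0.28 over the 21 mitochondrial genes and -0.04 over the 5 peroxisomal genes, against 0.01 over all genes. Among the mitochondrial genes 8 rose and 0 fell, and among the peroxisomal genes 0 rose and 1 fell (at an unadjusted p under 0.05 from limma, 12 mitochondrial genes were higher and 0 lower, and 0 peroxisomal genes were higher and 1 lower, where 16.2% of all genes were higher and 13.3% lower). Arrays of both groups did not overlap in 16 genes that were higher and 5 that were lower in Q-NSPCs, where 18.7% and 15.3% of all genes did so in these directions. The difference between both compartments was not tested as such.

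The counts depended on single arrays, as did those over all genes. Without Q-NSPC replicate 1, 14 genes rose and 6 fell, where 12.7% and 10.9% of all genes did. When Q-NSPC replicate 2 was omitted, 2 rose and 2 fell, against 2.93% and 1.54% of all genes. Omitting Q-NSPC replicate 3 gave 2 rises and 1 fall, against 2% and 0.713%. Among the A-NSPC arrays, omitting replicate 1 gave 2 rises and 0 falls (1.84% and 0.591% of all genes), omitting replicate 2 gave 4 and 3 (4.05% and 2.89%), and omitting replicate 3 gave 2 and 0 (2.04% and 0.823%). Cpt1a and Eci2 passed in 6 of 6 such fits, Ehhadh in 4 and Acsl3 in 3. Cpt2, Acadvl and Acsl4 passed in 2 fits, Cpt1c, Acad11, Echs1, Eci1, Acaa2, Decr1 and Acsl5 in 1, and Acot2 in 0.

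**Figure D1:**
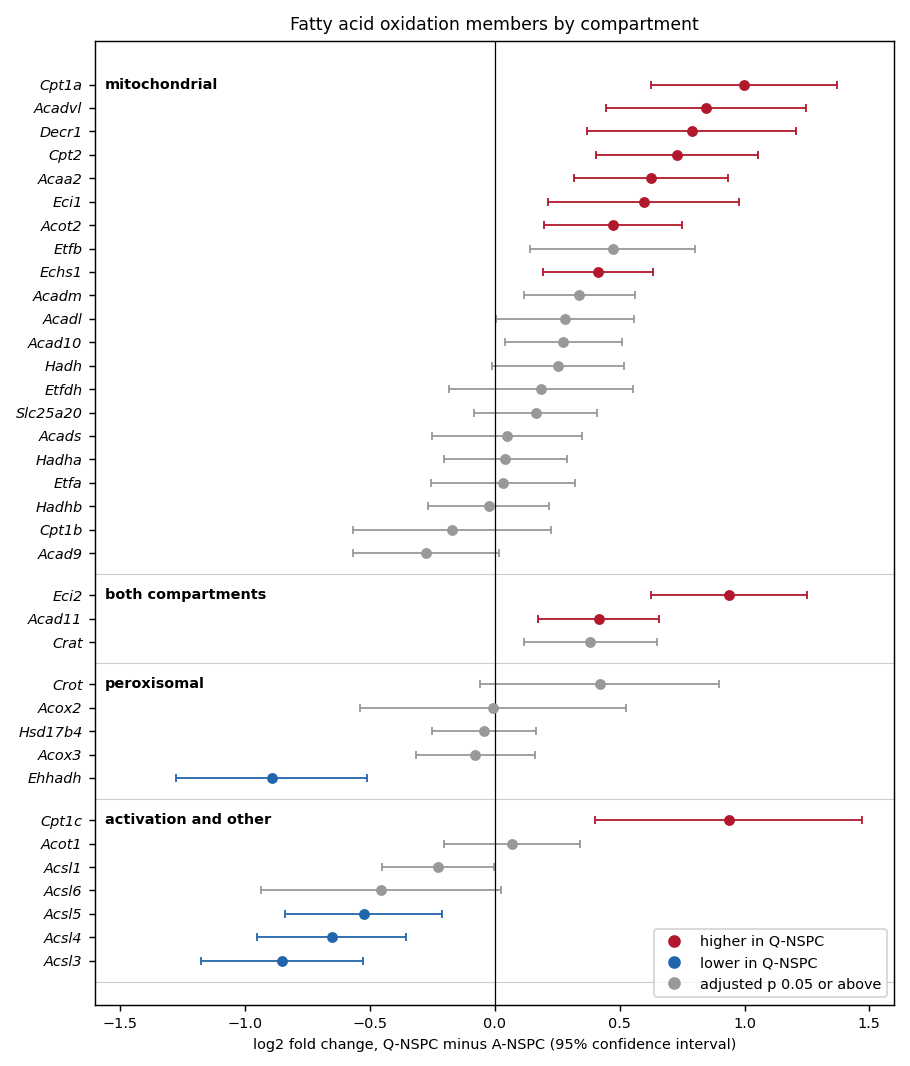
Log2 fold change (Q-NSPC minus A-NSPC, x axis) of the 36 measured genes with 95% confidence intervals from limma, grouped by compartment and ordered by size, with genes that rose in red, genes that fell in blue and the others in grey. The 8 mitochondrial genes that rose span 0.41 to 1.00, while in the peroxisomal group Ehhadh lies at -0.89 and the other 4 have intervals that include 0.

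Transcripts of both transferases of the carnitine shuttle rose. Cpt1a, the form of CPT1 that controls entry in most tissues, had log2 intensities of 10.55, 11.01 and 11.11 in Q-NSPC arrays and 10.02, 9.69 and 9.97 in A-NSPC arrays. Every Q-NSPC array lay above every A-NSPC array, and the difference was 1.00 log2 units (standard error, SE, 0.16, adjusted p = 0.0103 from limma). Cpt2, which releases the acyl group inside, had 10.93, 11.36 and 11.30 in Q-NSPC arrays and 10.44, 10.63 and 10.33 in A-NSPC arrays. These groups did not overlap either, and Cpt2 rose by 0.73 (SE 0.14, adjusted p = 0.0168 from limma). The translocase between both enzymes, Slc25a20, did not pass at a difference of 0.16 (95% interval -0.08 to 0.41). Cpt1b, the muscle form of CPT1, had overlapping arrays at 9.01, 8.35 and 8.57 in Q-NSPCs and 8.77, 8.68 and 8.99 in A-NSPCs, and a log2 fold change of -0.17 (interval -0.57 to 0.23). Cpt1c had 9.25, 10.14 and 10.13 in Q-NSPC arrays and 8.96, 8.71 and 9.04 in A-NSPC arrays. It rose by 0.94 (SE 0.23, adjusted p = 0.0345 from limma), with Q-NSPC replicate 1 close to the A-NSPC arrays. In neurons Cpt1c is known as a sensor of malonyl-CoA with little transferase activity. Of the 14 neuroblast and neuron markers above 9 rose and 1 fell, and their part in the value of Cpt1c was not tested. Crat, which makes carnitine esters of short chains in both compartments, had no overlap (11.20, 11.50 and 11.54 in Q-NSPCs, 10.98, 11.07 and 11.04 in A-NSPCs). It missed the threshold at a log2 fold change of 0.38 (adjusted p = 0.0624 from limma, and 0.00871 without Q-NSPC replicate 1). With any other array left out, Crat did not pass (adjusted p up to 0.202 from limma).

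The dehydrogenases that open each round are specific for chain length, and the one for the longest chains rose. Acadvl, which acts on very long chains, had 9.90, 10.48 and 10.42 in Q-NSPC arrays and 9.22, 9.62 and 9.42 in A-NSPC arrays. It rose by 0.85 (SE 0.17, adjusted p = 0.0203 from limma), and the arrays did not overlap. Acadl, for long chains, had a log2 fold change of 0.28 (interval 0.00 to 0.56, adjusted p = 0.165 from limma). Acadm, for medium chains, had 9.88, 10.06 and 10.02 in Q-NSPCs and 9.66, 9.59 and 9.70 in A-NSPCs, and missed the threshold at 0.34 (adjusted p = 0.0529 from limma). Acads, for short chains, had overlapping arrays and 0.05 (interval -0.25 to 0.35). Acadvl, Acadl and Acadm were higher without overlap, as were 18.7% of all genes, and Acads overlapped. Acad10, a relative with less settled substrates, was higher without overlap too and had 0.27 (adjusted p = 0.115 from limma). Acad9, which is known chiefly as an assembly factor of respiratory complex I, had -0.28 (interval -0.57 to 0.02). Without Q-NSPC replicate 1, Acadl and Acadm were higher (adjusted p = 0.0492 and 0.0242 from limma) and Acad9 was lower (log2 fold change -0.39, adjusted p = 0.0404). With any other array left out, Acadl, Acadm and Acad9 did not pass (adjusted p up to 0.426, 0.170 and 0.440 from limma).

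Of the enzymes that finish a round, the hydratase Echs1 and the thiolase Acaa2 rose, and both subunits of the trifunctional protein did not pass. Echs1, the short-chain hydratase, had 10.52, 10.66 and 10.71 in Q-NSPC arrays and 10.17, 10.25 and 10.22 in A-NSPC arrays. It rose by 0.41 (SE 0.10, adjusted p = 0.0277 from limma) with little spread in either group. Acaa2, the mitochondrial thiolase, had 11.96, 12.20 and 12.37 in Q-NSPC arrays and 11.69, 11.57 and 11.39 in A-NSPC arrays, and rose by 0.63 (SE 0.13, adjusted p = 0.0223 from limma). Hadh, the short-chain hydroxyacyl-CoA dehydrogenase, had a log2 fold change of 0.25 (interval -0.01 to 0.52) and overlapping arrays. Hadha and Hadhb form the trifunctional protein of the inner membrane, which carries out the last 3 reactions on long chains. Hadha had 12.07, 12.20 and 12.09 in Q-NSPC arrays and 11.92, 12.10 and 12.21 in A-NSPC arrays, and Hadhb had 11.04, 11.19 and 11.28 in Q-NSPC arrays and 11.30, 11.13 and 11.15 in A-NSPC arrays. Both sets of arrays were interleaved, with log2 fold changes of 0.04 (interval -0.21 to 0.29) for Hadha and -0.02 (interval -0.27 to 0.22) for Hadhb. The dimmer of the 2 Hadha probe sets, at 0.14, missed the threshold too.

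Eci1, Decr1 and Eci2, which deal with double bonds, passed the test. Only Eci2 did so in every fit that left out an array. Unsaturated chains need an isomerase or a reductase before they can enter the round. Eci2, an isomerase of mitochondria and peroxisomes, had 10.11, 10.35 and 10.55 in Q-NSPC arrays and 9.47, 9.50 and 9.23 in A-NSPC arrays. It had the smallest p of all 36 genes and rose by 0.94 (SE 0.14, adjusted p = 0.00718 from limma). Eci1, the mitochondrial isomerase, had 9.47, 10.00 and 10.02 in Q-NSPC arrays and 9.36, 9.29 and 9.04 in A-NSPC arrays. Replicate 1 of the Q-NSPCs lay just above the A-NSPC arrays, and Eci1 rose by 0.60 at the edge of the threshold (adjusted p = 0.0493 from limma, and 0.0503 and 0.0584 after repeated quantile normalization and after centring each array). Decr1, the mitochondrial dienoyl-CoA reductase, had 9.23, 9.88 and 9.93 in Q-NSPC arrays and 8.94, 8.93 and 8.81 in A-NSPC arrays, and rose by 0.79 (SE 0.18, adjusted p = 0.0281 from limma). These genes were grouped here by what they do, and the group was not tested. Acad11, a dehydrogenase of both compartments that acts on very long and on hydroxylated chains, had 7.43, 7.71 and 7.63 in Q-NSPCs and 7.22, 7.11 and 7.19 in A-NSPCs, and rose by 0.42 (adjusted p = 0.0364 from limma).

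Genes that pass on the electrons of the first step did not pass the test. Etfa and Etfb encode the subunits of ETF, and Etfdh encodes the enzyme that hands its electrons to ubiquinone. Etfa had a log2 fold change of 0.03 (interval -0.25 to 0.32) and Etfdh 0.18 (interval -0.18 to 0.55), with overlapping arrays in both. Etfb had 10.62, 11.06 and 10.95 in Q-NSPC arrays and 10.36, 10.59 and 10.27 in A-NSPC arrays. These arrays were apart by a narrow margin, and Etfb reached 0.47 (adjusted p = 0.064 from limma, and 0.0100 without Q-NSPC replicate 1). With any other array left out, Etfb did not pass (adjusted p up to 0.196 from limma).

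The thioesterase Acot2 rose inside the mitochondrion, where it frees fatty acids from coenzyme A. It had 10.99, 10.71 and 10.89 in Q-NSPC arrays and 10.52, 10.45 and 10.22 in A-NSPC arrays, and differed by 0.47 log2 units (SE 0.12, adjusted p = 0.0378 from limma). Its Q-NSPC replicate 1 was the highest array, unlike in the other genes that rose. Acot1, its cytosolic relative, had 5.53, 5.29 and 5.17 in Q-NSPCs and 5.36, 5.23 and 5.19 in A-NSPCs, low values that overlapped (log2 fold change 0.07, interval -0.20 to 0.34). Both genes are close paralogs, and how far their probes share transcripts was not tested.

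**Figure D2:**
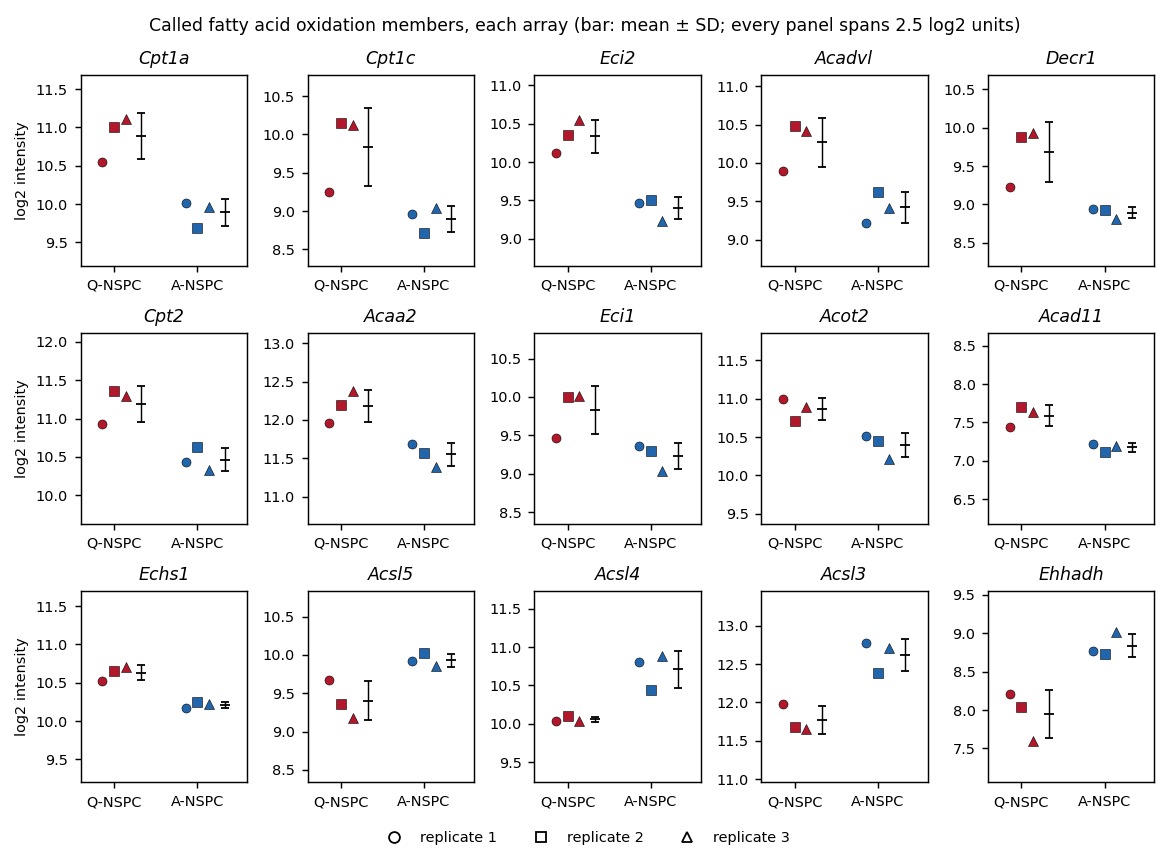
Log2 intensity (y axis) of the 15 genes that rose or fell, with Q-NSPC arrays in red on the left and A-NSPC arrays in blue on the right of each panel, symbols for replicates 1 to 3 and bars for mean ± SD (n = 3 each). Groups are apart in every panel, and the circle of Q-NSPC replicate 1 lies nearest to the A-NSPC arrays in most of them, as in Cpt1c, Decr1 and Eci1.

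Of the 5 peroxisomal genes 0 rose and 1 fell. Ehhadh, the bifunctional enzyme that hydrates and dehydrogenates straight chains, had 8.21, 8.04 and 7.59 in Q-NSPC arrays and 8.77, 8.73 and 9.02 in A-NSPC arrays. All Q-NSPC arrays were lower, and Ehhadh fell by 0.89 log2 units (SE 0.17, adjusted p = 0.0152 from limma). Hsd17b4, the multifunctional enzyme for branched and very long chains, had 10.29, 10.20 and 10.29 in Q-NSPC arrays and 10.36, 10.27 and 10.27 in A-NSPC arrays. This was the narrowest interval of the 36 genes, with a log2 fold change of -0.04 (interval -0.25 to 0.17). Acox3 and Acox2, oxidases that start the peroxisomal round on branched chains, had -0.08 (interval -0.31 to 0.16) and -0.01 (interval -0.54 to 0.52). Acox2 was scattered, at 6.74, 6.37 and 6.12 in Q-NSPCs and 5.94, 6.51 and 6.80 in A-NSPCs. Crot, which prepares shortened chains for export as carnitine esters, had 10.99, 11.51 and 11.20 in Q-NSPC arrays and 10.94, 10.37 and 11.12 in A-NSPC arrays, and did not pass at 0.42 (interval -0.06 to 0.90, adjusted p = 0.224 from limma). With the 3 genes of both compartments counted as peroxisomal, 2 of 8 rose and 1 fell and the median was 0.19, and counted as mitochondrial, 10 of 24 rose and the median was 0.36.

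All 5 Acsl synthetases, which activate long chains, had negative log2 fold changes, and 3 fell. The statement covers this family alone, since Slc27a1 and Acsbg1, which also have synthetase activity, rose and are given below with uptake and binding. Acsl3, a synthetase of the endoplasmic reticulum and of lipid droplets, had 11.98, 11.67 and 11.65 in Q-NSPC arrays and 12.77, 12.38 and 12.71 in A-NSPC arrays, and fell by 0.85 (SE 0.14, adjusted p = 0.0109 from limma). Acsl4, which prefers arachidonic acid, had 10.03, 10.10 and 10.04 in Q-NSPC arrays and 10.80, 10.44 and 10.89 in A-NSPC arrays, and fell by 0.65 (SE 0.13, adjusted p = 0.0183 from limma). Its 3 Q-NSPC arrays nearly coincided, replicate 1 included. Acsl5 had 9.67, 9.37 and 9.17 in Q-NSPCs and 9.91, 10.02 and 9.85 in A-NSPCs, and fell by 0.53 (adjusted p = 0.0406 from limma). Acsl1, the synthetase most tied to oxidation in muscle and fat, had 9.68, 9.59 and 9.58 in Q-NSPC arrays and 9.78, 9.78 and 9.96 in A-NSPC arrays. Its groups were apart, but it did not pass at -0.23 (adjusted p = 0.167 from limma). Acsl6, the form abundant in brain, had 9.59, 8.78 and 8.80 in Q-NSPCs and 9.60, 9.40 and 9.54 in A-NSPCs. Q-NSPC replicate 1 lay among the A-NSPC arrays, and Acsl6 had -0.45 (adjusted p = 0.192 from limma) with that array and -0.72 (adjusted p = 0.00203) without it. With any other array left out, Acsl6 did not pass (adjusted p up to 0.457 from limma).

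**Figure D3:**
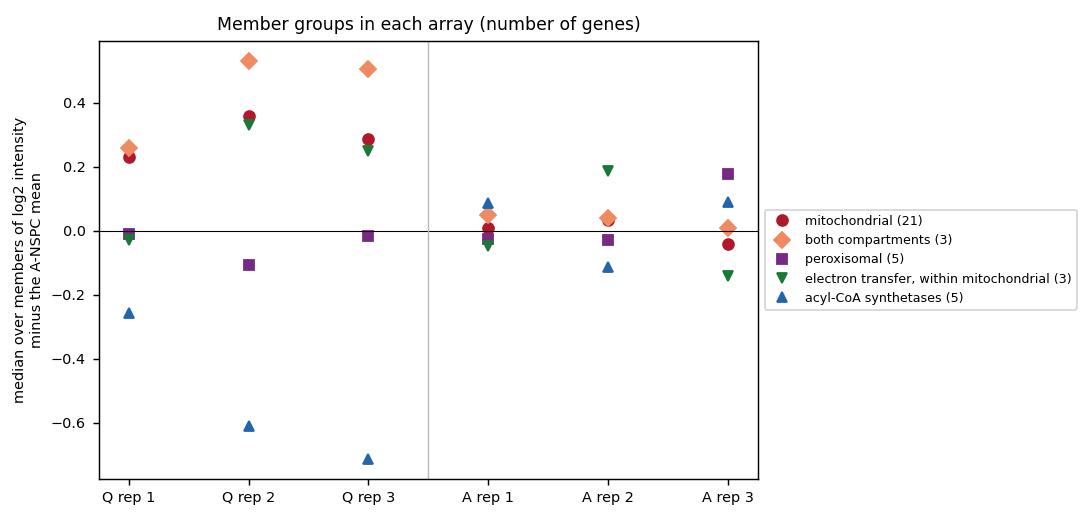
Median over the genes of each group (number in the legend) of the log2 intensity minus the A-NSPC mean (y axis), for each of the 3 Q-NSPC arrays on the left and the 3 A-NSPC arrays on the right. The 21 mitochondrial genes lie at 0.23, 0.36 and 0.29 in the Q-NSPC arrays and the 5 Acsl synthetases at -0.26, -0.61 and -0.71, while the 5 peroxisomal genes lie at -0.01, -0.11 and -0.02.

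Q-NSPC replicate 1 lay part of the way between the groups for most of these genes, as it did over the whole array. Measured along the way from the A-NSPC mean to the mean of Q-NSPC replicates 2 and 3, it stood at a median of 55.6% over the 15 genes that changed, and at 58.5% over all 2433 genes that changed. The lowest positions were 28.4% for Cpt1c and 30.5% for Eci1. Acot2 at 146% and Acsl4 at 106% went past the other Q-NSPC arrays. Fold changes without this array were larger for 13 of the 15 genes, as for Cpt1a (1.17), Eci2 (1.05), Acadvl (1.03), Decr1 (1.01) and Ehhadh (-1.03).

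Sequence upstream of the transcription start was compared to see what the genes that rose have in common beyond their enzymes. RefSeq windows on build GRCr8 were matched for 34 of 39 genes, 31 of them measured, and the 250 bases before the start were searched for 13 short elements on both strands. The element AGGTCA, the core letters that nuclear receptors such as the PPARs recognise, is shown here and was chosen after the matches of all elements were seen. Of the 11 genes that rose, 8 had a window. AGGTCA occurred in 4 of these 8 (Acadvl, Echs1, Eci1 and Acad11), in 0 of 4 that fell and in 1 of 19 others (Hsd17b4), and in 14.1% of all 33469 windows. In the fits that left out 1 array, Acadvl passed in 2 of 6 and Echs1, Eci1 and Acad11 in 1. Cpt1a and Eci2, which passed in all 6 of those fits, had no match. The paired element in which AGGTCA repeats after any 1 base (DR1) occurred in none of the 31 windows and in 0.0508% of all windows, and TCAAGGTCA, an extended form that contains it, in none of the 31 and in 0.388% of all. The windows of the 4 genes with a match are shown beside those of Cpt1a, which rose, and Ehhadh, which fell, as examples without one. Each runs 5′ to 3′ along the gene and ends at the base before the start used for it, with AGGTCA or its reverse complement in capitals. The window of Cpt1a lies inside the span of its gene (chr1:209993881-210056329), and those of Acadvl and Acad11 lie partly inside theirs. Other starts of these genes were not searched.
Cpt1a (chr1:209995910-209996159, plus strand): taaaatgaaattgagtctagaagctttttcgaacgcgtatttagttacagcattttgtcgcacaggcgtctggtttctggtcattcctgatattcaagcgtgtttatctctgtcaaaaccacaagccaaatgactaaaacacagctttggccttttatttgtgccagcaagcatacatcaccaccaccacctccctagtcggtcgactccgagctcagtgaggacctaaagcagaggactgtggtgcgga
Acadvl (chr10:55236706-55236955, minus strand): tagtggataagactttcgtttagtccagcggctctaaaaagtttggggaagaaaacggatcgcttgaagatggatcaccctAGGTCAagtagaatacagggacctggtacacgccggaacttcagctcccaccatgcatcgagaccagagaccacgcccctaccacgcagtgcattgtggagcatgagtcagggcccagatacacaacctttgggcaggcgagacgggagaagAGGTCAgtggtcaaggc
Echs1 (chr1:204333507-204333756, minus strand): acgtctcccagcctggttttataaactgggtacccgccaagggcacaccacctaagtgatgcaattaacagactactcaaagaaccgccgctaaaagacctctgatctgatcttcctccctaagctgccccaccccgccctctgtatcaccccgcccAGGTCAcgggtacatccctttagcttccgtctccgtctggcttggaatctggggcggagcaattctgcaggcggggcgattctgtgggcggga
Eci1 (chr10:13961000-13961249, plus strand): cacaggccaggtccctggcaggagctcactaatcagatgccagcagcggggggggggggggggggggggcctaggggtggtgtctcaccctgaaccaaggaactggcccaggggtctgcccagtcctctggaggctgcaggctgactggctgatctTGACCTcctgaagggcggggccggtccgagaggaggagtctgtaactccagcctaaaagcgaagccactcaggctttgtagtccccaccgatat
Acad11 (chr8:113559962-113560211, plus strand): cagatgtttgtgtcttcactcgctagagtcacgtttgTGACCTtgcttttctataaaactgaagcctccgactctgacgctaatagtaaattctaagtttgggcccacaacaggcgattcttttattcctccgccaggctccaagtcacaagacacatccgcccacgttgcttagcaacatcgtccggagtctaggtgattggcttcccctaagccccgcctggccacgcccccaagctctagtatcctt
Ehhadh (chr11:92746159-92746408, plus strand): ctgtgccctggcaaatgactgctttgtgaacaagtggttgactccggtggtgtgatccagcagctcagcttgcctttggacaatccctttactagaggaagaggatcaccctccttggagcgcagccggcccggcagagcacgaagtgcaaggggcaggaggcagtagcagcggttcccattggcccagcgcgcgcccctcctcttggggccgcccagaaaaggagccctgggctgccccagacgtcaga
Acadvl held the element at 169 and at 17 bases before the start, counted to its first letter, and Echs1 held it at 93. In Eci1 and Acad11 it ran on the opposite strand, at 94 and 213 bases before the start. A match describes these letters in these windows and no binding. The GC box GGGCGG occurred in 5 of 8 genes that rose, 3 of 4 that fell and 12 of 19 others, against 30.5% of all windows, and the box CCAAT in 2 of 8, 2 of 4 and 7 of 19, against 34%. The E-box CACGTG (5.59% of all windows), the element TGNCCTTTG (1.56%) and a looser DR1 in which AGGNCA repeats (0.368%) had no match in the 31 windows. The element GGCGCC (8.69%) matched 1 gene that did not pass, and so did the single site TTGGCA (12%), while the NF1 palindrome that pairs TTGGC with GCCAA over 5 bases (0.0359%) matched none. The NRF1 element, which joins GCGCA and GCGC over 1 base (3.75%), matched 3 genes that did not pass, and the DR1 variant that joins AGG and AAAGG over 2 bases (2.26%) matched Etfa and Etfb. The DR1 forms and TCAAGGTCA overlap AGGTCA in sequence.

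Counts in 9 lists of genes around the pathway are read against the 7.91% of all genes that rose and the 6.2% that fell, and no list was tested as such. In the control of entry by malonyl-CoA, which inhibits CPT1, 0 of 13 genes rose and 2 fell, while at an unadjusted p under 0.05 from limma 5 were higher and 2 lower (16.2% and 13.3% of all genes). Acaca, the carboxylase that makes malonyl-CoA for lipid synthesis, had 10.27, 9.79 and 9.95 in Q-NSPC arrays and 10.98, 10.50 and 10.98 in A-NSPC arrays, and fell by 0.82 (adjusted p = 0.0217 from limma). Camkk2, a kinase that activates AMPK, fell by 0.69 (adjusted p = 0.0381). Acacb, the carboxylase at the mitochondrial surface, had 0.25 (adjusted p = 0.134) and Mlycd, which breaks malonyl-CoA down, 0.10 (adjusted p = 0.591). The list had a median of 0.18, against 0.01 over all genes.

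Of 22 genes of uptake, binding and carnitine supply 2 rose and 1 fell, shares close to the 7.91% and 6.2% of all genes. Slc27a1, a fatty acid transporter with synthetase activity, rose by 0.47 (adjusted p = 0.0294 from limma) and Acsbg1, a synthetase of glia and neurons, by 0.61 (adjusted p = 0.0401), while the acyl-CoA binding protein Dbi fell by 0.59 (adjusted p = 0.0411). Of 20 genes of lipid droplets and lipolysis 1 rose and 3 fell. Pnpla2, the lipase that opens the breakdown of stored triglyceride, rose by 0.42 (adjusted p = 0.0381 from limma). Lpl, which releases fatty acids from lipoproteins, had 9.31, 8.24 and 8.26 in Q-NSPC arrays and 10.26, 10.17 and 10.32 in A-NSPC arrays, and fell by 1.65 (adjusted p = 0.00952). Pnpla3 and Dgat2, which remodel and make triglyceride, had log2 fold changes of -0.74 and -0.42 and fell (adjusted p = 0.0134 and 0.0428).

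Other enzymes of both compartments included the largest rise around the pathway. Ech1, an isomerase for double bonds of mitochondria and peroxisomes, had 11.03, 11.94 and 11.93 in Q-NSPC arrays and 9.89, 10.19 and 9.58 in A-NSPC arrays. It rose by 1.75 (SE 0.26, adjusted p = 0.00773 from limma), in the direction of Eci1, Eci2 and Decr1. Of its list of 21 other mitochondrial acyl-CoA enzymes 3 rose and 1 fell, the others being Mmut (0.52) and Acadsb (0.51), which act on propionate and on branched amino acid carbon, and the dim Acsm3 (-0.67). Of 20 genes of peroxisome assembly and transport 2 rose and 0 fell, where 7.91% of all genes rose and 6.2% fell. Abcd2, which carries very long chains into the peroxisome, had 9.47, 9.85 and 10.34 in Q-NSPC arrays and 8.41, 8.44 and 8.15 in A-NSPC arrays and rose by 1.55 (adjusted p = 0.00556 from limma), and Pex3, a factor of membrane assembly, rose by 0.47 (adjusted p = 0.0443). Of 20 other peroxisomal lipid enzymes likewise 2 rose and 0 fell, which were catalase (Cat, 0.85, adjusted p = 0.00978), the enzyme that removes the hydrogen peroxide made by the oxidases, and Nudt7 (0.99, adjusted p = 0.0449), which cleaves coenzyme A. None of 7 ketone body genes passed limma, though 2 were higher and 1 was lower at an unadjusted p under 0.05.

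Among 25 regulators 2 rose and 1 fell, which is close to the shares over all genes (7.91% and 6.2%). Rxra, the partner receptor that PPARs need to bind DNA, had 10.76, 11.37 and 11.25 in Q-NSPC arrays and 9.98, 9.87 and 9.65 in A-NSPC arrays, and rose by 1.29 (SE 0.17, adjusted p = 0.00556 from limma). Foxo3, a factor of stress resistance, rose by 0.72 (adjusted p = 0.0152) and Tfam, which maintains mitochondrial DNA, fell by 0.46 (adjusted p = 0.0347). The PPAR genes themselves did not pass, with log2 fold changes of 0.27 for Ppara (interval -0.04 to 0.59), -0.08 for Ppard (interval -0.33 to 0.17) and -0.18 for the dim Pparg (interval -0.42 to 0.07). Ppargc1a, a coactivator of oxidative genes, had 0.54 (adjusted p = 0.065). Of 7 further genes listed as PPAR targets 2 rose and 0 fell. These were Angptl4, an inhibitor of lipoprotein lipase (1.09, adjusted p = 0.00786), and Txnip, an inhibitor of thioredoxin that is better known as a gene of glucose sensing (1.34, adjusted p = 0.0131). Pdk4, a kinase that turns pyruvate oxidation down, was dim and had 0.27 (interval -0.05 to 0.60).

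**Figure D4:**
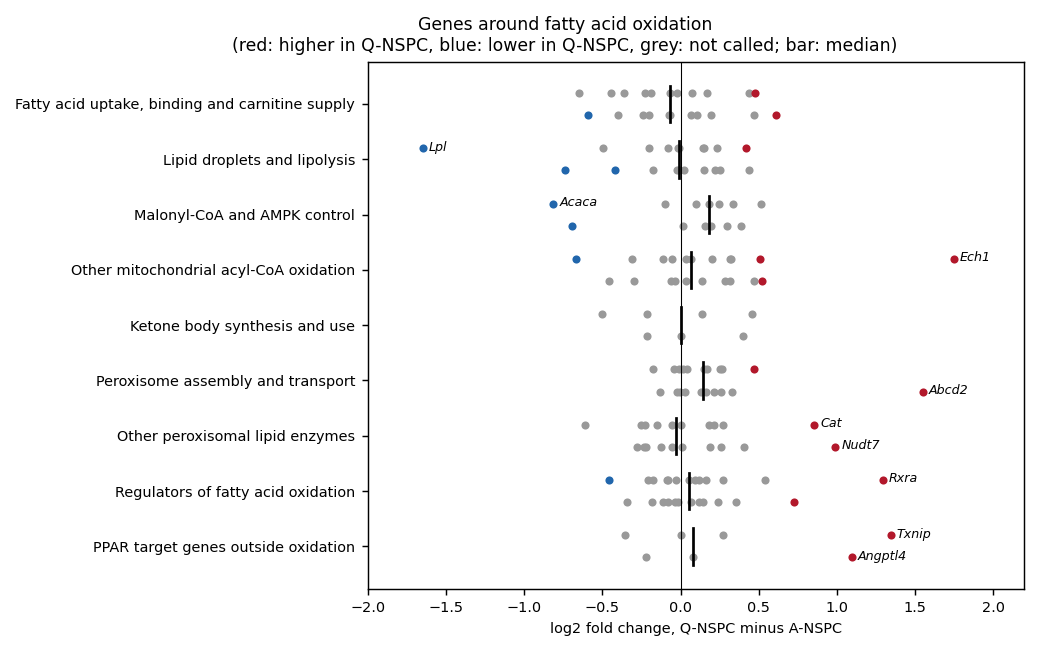
Log2 fold change (Q-NSPC minus A-NSPC, x axis) of each gene in 9 lists around fatty acid oxidation, with genes that rose in red, genes that fell in blue, the others in grey and a black bar at the list's median. List medians lie between -0.07 and 0.18, and Ech1, Abcd2, Txnip, Rxra and Angptl4 reach past 1 on the right and Lpl past -1 on the left.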

How the data were processed

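Total RNA of the 6 neurosphere cultures was hybridised to Affymetrix GeneChip arrays for rat genes, 1 array per sample. The deposited values are log2 intensities that the authors made with RMA, which corrects background, equalises the arrays' distributions and summarises probes; the deposited notes also name Affymetrix Expression Console and Partek 6.10. The genome build is not given in the sources used here. Of 29214 probe sets, 18644 carry 1 gene symbol, 962 several and 9608 none. Of their symbols 18460 were looked up by Entrez number, which changed 0. Each of 17245 genes was represented by its brightest probe set on average, and no dim gene was left out.

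Groups and replicate numbers came from the sample titles. Differences (Q-NSPC minus A-NSPC) were tested with limma 3.58.1 in R 4.3.3 (eBayes without trend, two-sided), with Benjamini-Hochberg adjustment over 17245 genes, a threshold of 0.05 and 95% intervals. The script was tested on simulated data with known changes. The members, compartments, lists and tests were chosen with earlier results of these data known, and lists were only counted. Every member was named, and in each surrounding list the genes that passed could be named. Genes named beyond this (marker genes aside: Acacb, Mlycd, the PPARs, Ppargc1a and Pdk4) were chosen after their values were seen. Alternatives were another choice of probe set, a filter on dim genes, other variance and normalization settings, the replicate number as a block, an unpaired t-test, the compartment of genes found in both, and leaving out each array. Their number limits the precision.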

Additional observations from a re-analysis of the deposited data

How the results depend on the processing

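Rises and falls kept their direction in all 15 genes that changed under each of the 13 other settings, while the counts of calls did not hold. Leaving out 1 array at a time gave 2 to 14 rises and 0 to 6 falls among the 36 genes, 1 to 10 rises and 0 to 1 falls among the mitochondrial genes, and 0 to 1 falls among the peroxisomal genes. The mitochondrial median ranged from 0.23 to 0.37 and the peroxisomal median from -0.09 to -0.01, with the highest mitochondrial value and the one mitochondrial fall (Acad9) in the fit without Q-NSPC replicate 1. Genes near 0 changed sign in these fits, with log2 fold changes of -0.065 to 0.16 for Acads, -0.036 to 0.11 for Hadha, -0.079 to 0.041 for Hadhb, -0.069 to 0.12 for Etfa, -0.24 to 0.18 for Acox2 and -0.029 to 0.15 for Acot1. The labels do not say whether the replicate numbers pair the cultures. Deviations of same-numbered arrays correlated at -0.05, 0.01 and -0.03, and the highest of other pairs was 0.08. These values show no shared effect of the number, but cannot decide whether the cultures were paired. With the number as a block, 7 genes rose, 5 of them mitochondrial, and 4 fell, where 6.34% of all genes rose and 5.51% fell. The study's methods name unpaired and paired t-tests among other tests, though not for the arrays in particular. An unpaired t-test with Benjamini-Hochberg adjustment gave 0 rises and 0 falls, as it did over all genes. Among the mitochondrial genes it gave 0 and among the peroxisomal genes 0 as well. Its unadjusted p-values were under 0.05 for 15 genes that were higher and 5 that were lower (13.9% and 10.7% of all genes). Counting the genes of both compartments as peroxisomal gave 2 rises and a median of 0.19, and counting them as mitochondrial a median of 0.36. Without dim genes Acadm passed as well (adjusted p = 0.0475). Probe set choice and variance settings changed no call of the 36 genes. The cause of each change was not tested. With 3 arrays a group, small changes are not well resolved in genes that are dim, such as Acot1, or scattered, such as Acox2.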
